A study of Mus musculus with 6 samples.

Results

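The guanylate-binding proteins (GBPs) and the immunity-related GTPases (IRGs) are families of GTP-hydrolysing proteins that cells make in response to interferons. Of their genes, 8 are described here: the GBP genes Gbp2, Gbp3, Gbp6 and Gbp7, and the IRG genes Igtp, Irgm1, Irgm2 and Iigp1. They were chosen by name, and each was read by the probe set that carries its symbol alone, or by the brighter one where there were several. This gave 7 measured members among 22180 measured genes. Gbp2 had no probe set of its own, because the platform annotation gives the only one to Gbp2 and Gbp2b together, and no value is reported for it.

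Liver of 6 mice was profiled with 1 whole-transcript array per mouse, 3 ErbB4-/- mice and 3 wild-type controls, all of strain C57BL/6J. ErbB4 is a cell surface receptor for neuregulins, related to the epidermal growth factor receptor, and mice without it die as embryos. Per the labels, the ErbB4-/- line therefore carries a transgene that makes ErbB4 in the heart, and it was backcrossed to C57BL/6J, while the controls are labelled wild type with no mention of the transgene. On postnatal day 14 every mouse, ErbB4-/- or control, was injected with DEN (by usage diethylnitrosamine, which causes liver tumours). Dissection followed after 32 weeks for all of them by the treatment protocol. The treatment characteristic instead gives 35, 36 and 37 weeks for ErbB4-/- replicates 1 to 3 and 32, 33 and 34 weeks for control replicates 1 to 3, and if it is right, age and genotype cannot be told apart except through the weeks within each group. Loss of ErbB4, the heart transgene and other differences of the line cannot be told apart either.

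GBPs and IRGs are best known as effectors of interferon gamma, which T cells and natural killer cells release. The receptor signals through the kinases JAK1 and JAK2 to gamma-activated sites in promoters, and the transcription factor IRF1 acts at interferon-stimulated response elements. The proteins gather on the vacuoles in which bacteria and parasites live and help to open them. In the mouse, IRGM1, IRGM2 and IGTP (also called IRGM3) carry an unusual GMS nucleotide-binding motif and act as regulators that keep effector IRGs of the GKS type, such as IIGP1, inactive on the cell's own membranes.

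Promoter sequences were taken from RefSeq for assembly GRCm38.p6, from 250 bases before to 50 bases after each annotated start. They are shown because the members are read as targets of interferon, and the letters of its elements can be seen there. Windows of 6 members were used, and each is printed 5′ to 3′ on the gene's strand from 110 bases before the start to 10 bases after it. Capitals mark 2 motifs, searched on both strands. The core letters of an interferon-stimulated response element are GAAA, any 2 bases and GAAA again, and those of a gamma-activated site are TTCNNNGAA, where N is any base:
Gbp2 (chr3:142620553-142620672, + strand): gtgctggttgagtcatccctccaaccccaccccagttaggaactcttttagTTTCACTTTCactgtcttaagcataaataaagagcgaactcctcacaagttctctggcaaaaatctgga
Gbp3 (chr3:142559934-142560053, + strand): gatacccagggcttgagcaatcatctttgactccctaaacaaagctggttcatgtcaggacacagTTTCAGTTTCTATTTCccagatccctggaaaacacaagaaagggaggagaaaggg
Gbp7 (chr3:142530226-142530345, + strand): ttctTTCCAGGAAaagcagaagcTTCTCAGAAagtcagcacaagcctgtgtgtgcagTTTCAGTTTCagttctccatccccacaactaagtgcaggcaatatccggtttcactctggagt
Irgm1 (chr11:48871411-48871530, - strand): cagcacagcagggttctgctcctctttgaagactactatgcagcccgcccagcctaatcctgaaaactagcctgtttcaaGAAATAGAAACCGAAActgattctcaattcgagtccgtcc
Igtp (chr11:58199446-58199565, + strand): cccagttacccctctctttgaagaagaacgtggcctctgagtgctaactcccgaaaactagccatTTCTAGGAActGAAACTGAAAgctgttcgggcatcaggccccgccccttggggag
Irgm2 (chr11:58214867-58214986, + strand): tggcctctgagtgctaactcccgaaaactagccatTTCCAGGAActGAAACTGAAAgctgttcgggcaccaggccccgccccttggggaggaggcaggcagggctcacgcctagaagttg

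Windows of members on chromosome 18, where Iigp1 lies, were left out of the search, and none of Gbp6 was used. All 6 members whose windows were used had the response element letters in a window, against 3.44% of the 32851 promoter windows of the same length. For Gbp3, which has 2 annotated starts, this holds for the window printed and not for the other one. In Gbp2, Gbp3 and Gbp7 the letters lie on the opposite strand, where they read TTTC, any 2 bases and TTTC, and in Irgm1, Igtp and Irgm2 on the gene's own strand. Gbp3 and Irgm1 hold 2 matches each, which overlap one another. TTCNNNGAA was present in Gbp7, Igtp and Irgm2, against 8.3% of all windows. In Igtp and Irgm2 it ends 2 bases before the response element letters, and this joined arrangement was searched for after it had been seen in both. It was found in 5 windows of 32851, or 0.0152%, those of Igtp, Irgm2, Tgtp1, Tgtp2 and Gm12185. Igtp and Irgm2 neighbour each other on chromosome 11, and their windows share an unbroken run of 61 equal bases when shifted by 30 bases, so their matches are not independent. A match is a run of letters, and no binding was measured here.

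**Figure D1:**
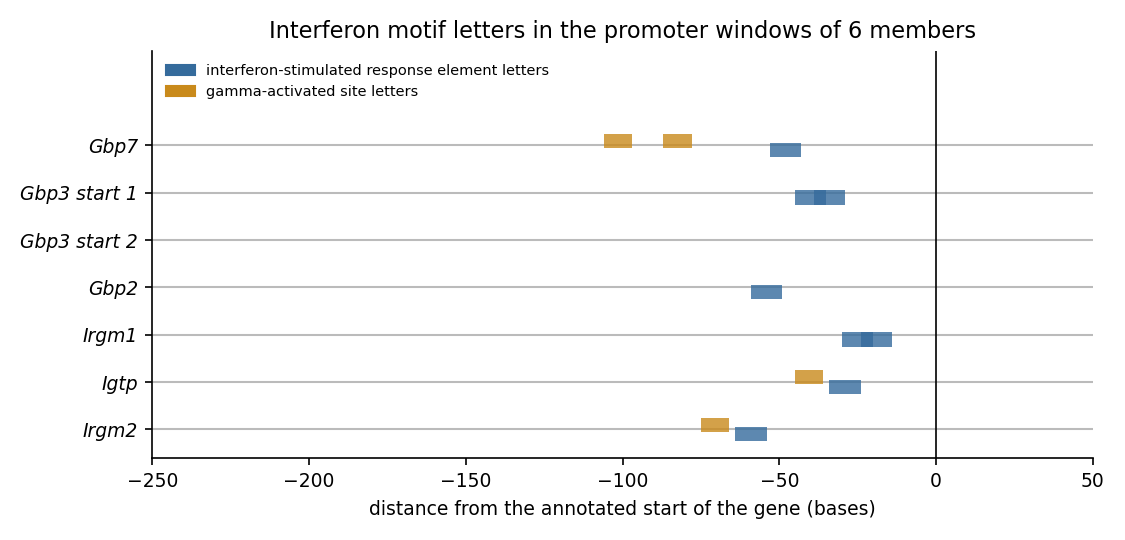
Positions of the motif letters in 7 promoter windows of 6 members, in bases from the annotated start of the gene (x axis), with 1 line per window. Blue boxes mark the interferon-stimulated response element letters and orange boxes those of the gamma-activated site. Every match lies upstream of the start, from -106 to -15, and the second start of Gbp3 has none.

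The 6 arrays had median log2 values between 4.83 and 4.86. The first principal component held 36.1% of the variance. It was negative for ErbB4-/- replicates 1 to 3 (-3.5, -5.4 and -33.4) and positive for control replicates 1 to 3 (21.5, 7 and 13.8). ErbB4-/- replicate 3 stood apart on it, with control replicate 1 at the other end. On the second component, with 25.8% of the variance, control replicate 1 scored -25.1 and ErbB4-/- replicate 3 scored -15.2. The other arrays lay between 4.2 and 14.8 there. Control replicate 1 also differed from the rest in sex-biased liver genes. Its log2 value was 2.52 for the male-biased gene Hsd3b5, against 8.70 to 9.88 on the other arrays, and 12.59 for the female-biased gene Cyp2b9, against 7.84 to 8.46. Xist, which is made from the inactive X chromosome of females, measured 3.54 on that array, against 3.32 to 3.6 on the others, and the labels used here do not give the sex of the mice. The differences of the members are therefore also given without control replicate 1 and without ErbB4-/- replicate 3. Those of the other named genes and lists rest on all 6 arrays. The tissue label was checked on 11 hepatocyte markers, whose mean lay between 12.31 and 12.46 on ErbB4-/- arrays and between 12.42 and 12.55 on control arrays. Erbb4 itself measured 4.75, 5.36 and 5.61 in ErbB4-/- liver, against 5.42, 5.73 and 5.42 in control liver, and did not pass (limma, adjusted p = 0.772). Which exons this probe set covers is not known here, and the genotype labels could not be checked by it.

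Expression of these GTPase genes was compared between ErbB4-/- and control liver. None of the 7 measured members passed at an adjusted p under 0.05 (limma, adjusted p between 0.760 and 0.994). With 3 arrays per group this does not show that they were unchanged. At an unadjusted p under 0.05 there were also 0 members (1, Gbp7, with the replicate number as a block), against 5.72% of all genes, and over all genes 1 of 22180 passed after adjustment, or 0.00451%. The mean of every measured member was lower in ErbB4-/- liver, by 0.01 to 0.26 on the log2 scale, against 44.8% of all genes with a lower and 54.6% with a higher mean. The median difference of the members was -0.12, against 0.015 over all genes. No member separated the groups, and of all genes 3.81% lay lower in ErbB4-/- liver without overlap and 4.52% higher. With shares this small, 0 of 7 measured members is not a result about the members, and the same holds for the unadjusted p. Without control replicate 1 the median difference of the members was -0.011, against 0.016 over all genes, with 4 members lower and 3 higher. Without ErbB4-/- replicate 3 it was -0.201, against 0.011 over all genes, with all 7 measured members lower. Leaving out ErbB4-/- replicate 1 gave -0.037, also with all 7 measured members lower, and leaving out ErbB4-/- replicate 2 gave -0.142. Without control replicate 2 the median was -0.189, and without control replicate 3 it was -0.240. With control replicate 1 and ErbB4-/- replicate 3 both left out it was -0.130. In whole tissue, fewer cells of a type and less RNA per cell cannot be told apart.

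**Figure D2:**
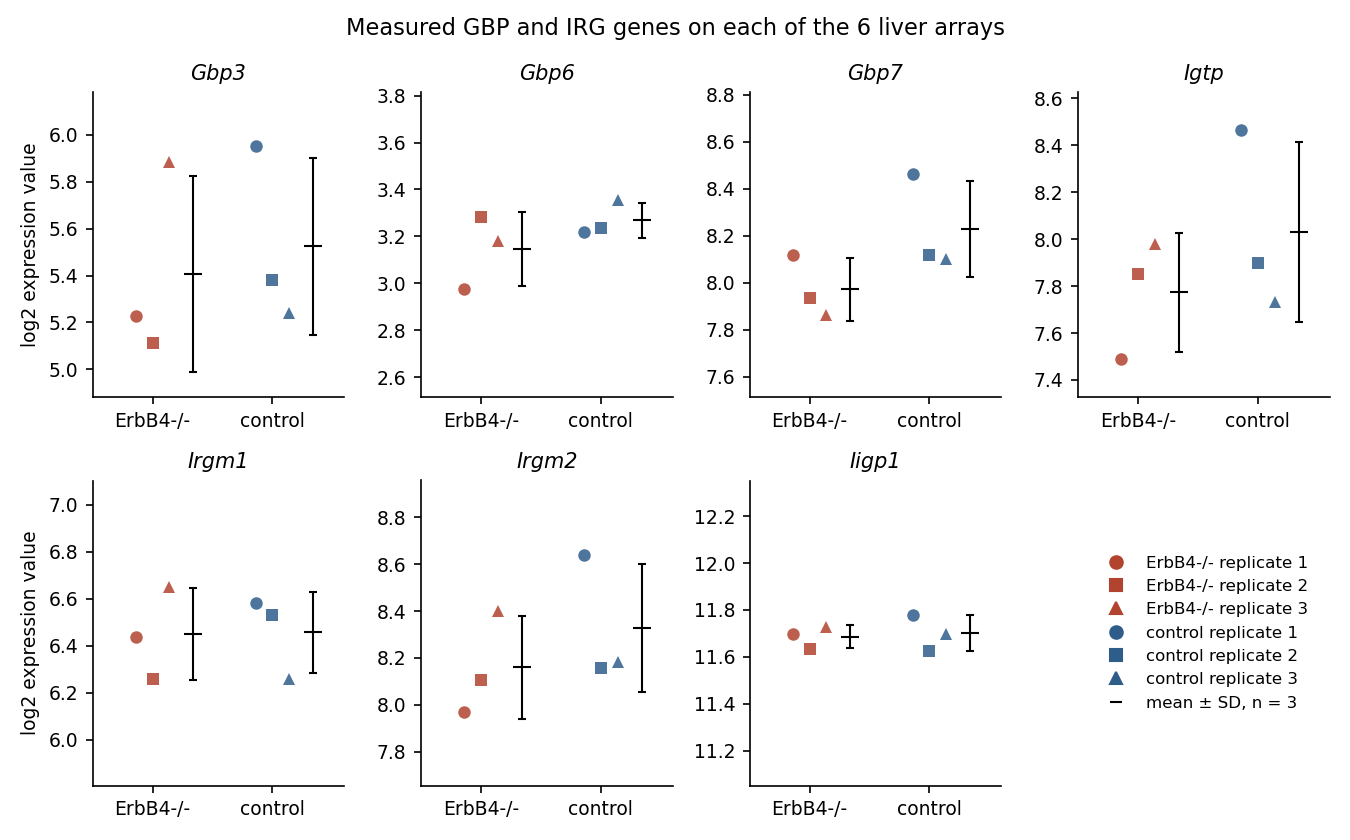
Deposited log2 values of the 7 measured members (y axis, same span of 1.3 log2 units in each panel) in ErbB4-/- and control liver, with 1 point per mouse and the mean ± SD of n = 3 beside them. The groups overlap in every panel, and control replicate 1 is the highest point for 5 members.

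Among the GBPs, which are recruited to pathogen vacuoles and to bacteria free in the cytosol, Gbp7 had the smallest p of all members. It measured 8.12, 7.93 and 7.86 in ErbB4-/- replicates 1 to 3, against 8.46, 8.12 and 8.10 in control replicates 1 to 3. ErbB4-/- replicate 1 had the same value as control replicate 2, and control replicate 1 was the highest array. The means were 7.97 ± 0.13 and 8.23 ± 0.20 in ErbB4-/- and control liver (SD, n = 3 each), so that the log2 difference was -0.26 (SE 0.13), with a 95% interval of -0.57 to 0.06. This did not pass (limma, unadjusted p = 0.0911, adjusted p = 0.760). Without control replicate 1 the difference was -0.14, without ErbB4-/- replicate 3 it was -0.20, and with the labelled week as a covariate it was 0.21. The labelled week follows the replicate number within each group and does not overlap between groups. The value with the week as a covariate therefore rests on the order of the replicates.

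Gbp3, which lies next to Gbp7 in the GBP cluster on chromosome 3, varied more within the groups than between them. It measured 5.23, 5.11 and 5.88 in ErbB4-/- liver, against 5.95, 5.38 and 5.24 in control liver. The array with the highest value in each group, ErbB4-/- replicate 3 and control replicate 1, stood 0.72 and 0.64 above the mean of the other 2 arrays of its group, while the means of the groups were 5.41 ± 0.42 and 5.52 ± 0.38. The log2 difference was -0.12, with an interval of -0.81 to 0.57 (limma, adjusted p = 0.907), and it was 0.098 without control replicate 1 and -0.355 without ErbB4-/- replicate 3.

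Gbp6, of the second GBP cluster on chromosome 5, gave low values. They were 2.98, 3.28 and 3.18 in ErbB4-/- liver, against 3.22, 3.24 and 3.35 in control liver. No background signal was used here, so values of this size may be background. The log2 difference was -0.12, with an interval of -0.36 to 0.11 (limma, adjusted p = 0.763). The difference was -0.148 without control replicate 1 and -0.140 without ErbB4-/- replicate 3. It was the only measured member for which control replicate 1 was neither the highest nor the second highest array.

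The regulatory IRGs of the GMS type are Igtp, Irgm1 and Irgm2, which sit on the membranes of the Golgi, the endoplasmic reticulum and lipid droplets. Igtp measured 7.49, 7.85 and 7.98 in ErbB4-/- liver, against 8.46, 7.90 and 7.73 in control liver. Control replicate 1 stood 0.65 above the mean of the other controls, and both of those lay within the range of the ErbB4-/- arrays. The difference of the means, 7.77 ± 0.25 and 8.03 ± 0.38 in ErbB4-/- and control liver, was -0.26 with an interval of -0.82 to 0.31 (limma, adjusted p = 0.777). Without control replicate 1 it was -0.042, and without ErbB4-/- replicate 3 it was -0.360.

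Irgm2, the neighbour of Igtp, followed the same order of arrays at both ends. Its log2 values were 7.97, 8.11 and 8.40 in ErbB4-/- liver, against 8.64, 8.16 and 8.18 in control liver. The highest values were those of control replicate 1 and ErbB4-/- replicate 3, and the lowest that of ErbB4-/- replicate 1, as for Igtp. The means were 8.16 ± 0.22 and 8.33 ± 0.27 in ErbB4-/- and control liver, with a difference of -0.17 and an interval of -0.60 to 0.27 (limma, adjusted p = 0.790), and the difference was -0.011 without control replicate 1 and -0.287 without ErbB4-/- replicate 3. The printed windows of these 2 genes are those with the joined motif letters.

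Irgm1, which in the mouse also has a role in autophagy and in the survival of macrophages and blood stem cells, differed least. It measured 6.44, 6.26 and 6.65 in ErbB4-/- liver, against 6.58, 6.53 and 6.26 in control liver, and its lowest values in each group were nearly equal. The means were 6.45 ± 0.20 and 6.46 ± 0.17 in ErbB4-/- and control liver, and the interval of the difference ran from -0.34 to 0.33 (limma, adjusted p = 0.994). Without control replicate 1 the difference was 0.056, and without ErbB4-/- replicate 3 it was -0.107. It was the only measured member whose highest value was that of an ErbB4-/- array, replicate 3.

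Iigp1, the effector of the GKS type among the members, was the steadiest across mice. It measured 11.70, 11.63 and 11.73 in ErbB4-/- liver, against 11.78, 11.62 and 11.70 in control liver, a range of 0.155 over all arrays. The difference was -0.01 with a standard error of 0.06 (limma, adjusted p = 0.952), and its 95% interval corresponds to a ratio of ErbB4-/- over control between 0.891 and 1.10. It had the narrowest interval of all measured members, and its difference was 0.025 without control replicate 1 and -0.034 without ErbB4-/- replicate 3. For Gbp3, whose interval was the widest, the same bounds were 0.572 and 1.49, a wider span of ratios.

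**Figure D3:**
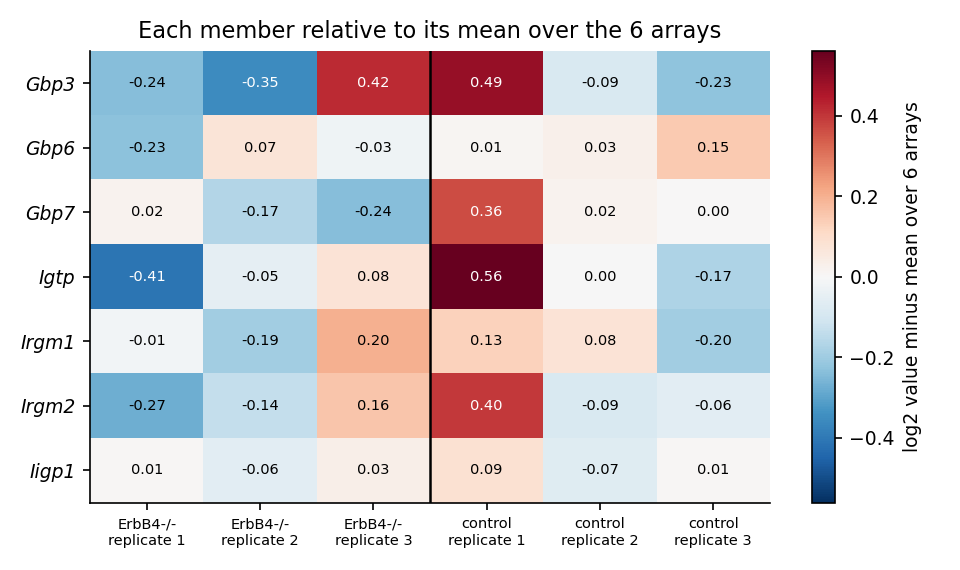
Each measured member (rows) on each array (columns, ErbB4-/- left of the line and control right of it) as its log2 value minus its mean over the 6 arrays. Control replicate 1 is high for Igtp (0.56), Gbp3 (0.49), Irgm2 (0.40) and Gbp7 (0.36), ErbB4-/- replicate 3 is high for Gbp3 (0.42), and Iigp1 stays within 0.09 of its mean.

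The members also varied between single mice of the same group. The mean of the 7 measured members was 7.13, 7.17 and 7.38 on ErbB4-/- arrays, against 7.59, 7.28 and 7.22 on control arrays. Control replicate 1 was the highest array for 5 members, Gbp3, Gbp7, Igtp, Irgm2 and Iigp1, and ErbB4-/- replicate 1 was the lowest for Gbp6, Igtp and Irgm2. ErbB4-/- replicate 3 was the highest ErbB4-/- array for Gbp3, Igtp, Irgm1, Irgm2 and Iigp1, but the lowest for Gbp7. Across the 6 arrays, the genes outside all lists whose pattern was most like the mean of the members were Tceal9 with Pearson r = 0.994, Acy1 with 0.993, Sgms1 with 0.990, Samd9l with 0.986 and Was with 0.981. These are the highest of 10964 genes at or above the median level, 103 of which reached 0.9, and with 6 arrays that share the high value of control replicate 1 they serve as a description.

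Of the other GBP, IRG and related genes, 11 of 15 were measured, 4 with a higher and 7 with a lower mean in ErbB4-/- liver. Their median difference was -0.13, and none passed (limma, smallest adjusted p = 0.760). Gm12250, an IRG-family gene that neighbours Igtp, measured 5.44, 5.44 and 5.33 in ErbB4-/- liver, against 5.91, 5.71 and 5.6 in control liver. Its groups did not overlap, and its difference was -0.34 (limma, unadjusted p = 0.0114).

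Gbp10, from the cluster of Gbp6 on chromosome 5, lay the other way. It measured 8.86, 8.86 and 8.51 in ErbB4-/- liver, against 8.39, 8.45 and 8.34 in control liver, a difference of 0.35 without overlap (limma, unadjusted p = 0.0224). Gbp2b, on chromosome 3, and Gbp4, on chromosome 5, had differences of -0.56 and -0.63, and their groups overlapped. The GBP genes of the chromosome 5 cluster are close copies of one another. How far their probe sets read each other's transcripts was not examined here. The genes at an unadjusted p under 0.05 were 1 higher and 1 lower of 11, against 2.77% and 2.94% of all genes.

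**Figure D4:**
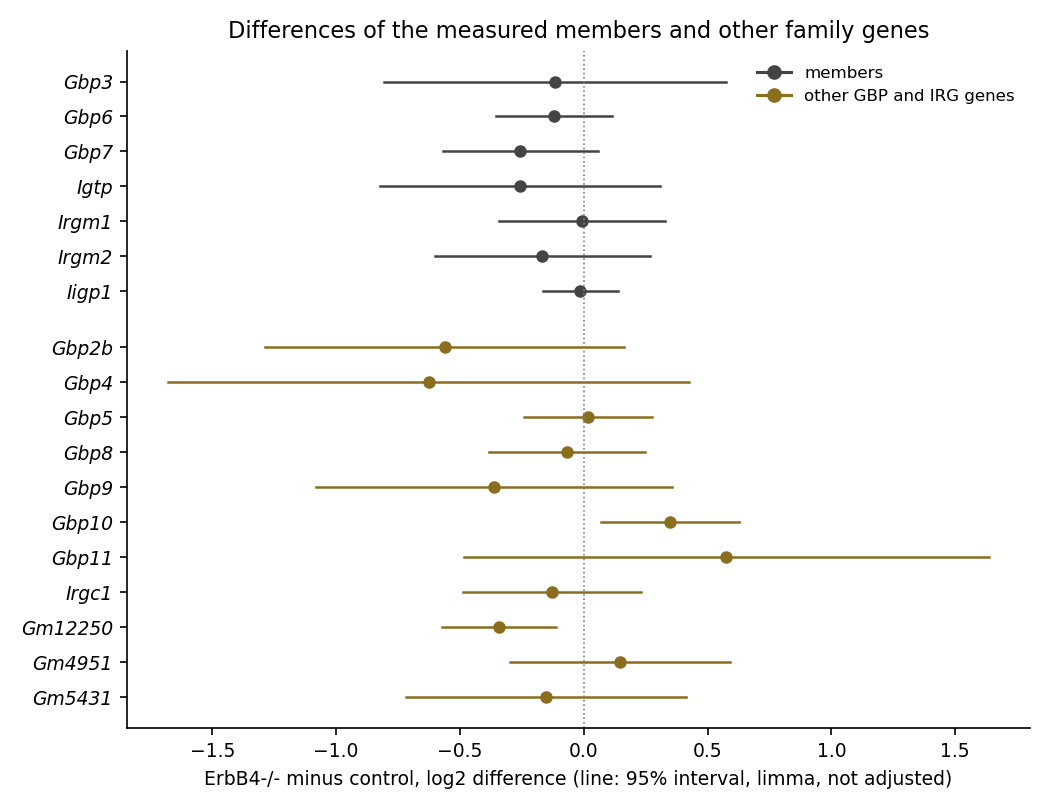
Log2 difference of ErbB4-/- minus control (x axis) for the 7 measured members and 11 other measured genes of the families (rows), with the unadjusted 95% interval of limma as a line. The intervals of all members span 0, and those of Gbp10 and Gm12250 do not.

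The pathway that induces these genes was read from its ligand downwards. Ifng, the gene of interferon gamma, measured 3.33, 3.42 and 3.38 in ErbB4-/- liver, against 3.38, 3.38 and 3.63 in control liver, values low enough to be background. None of the 12 measured genes of the list of ligand, receptor and signalling passed (limma, smallest adjusted p = 0.760). Ifngr1, the ligand-binding chain of the receptor, measured 8.54, 8.23 and 7.57 in ErbB4-/- liver, against 8.81, 8.67 and 8.91 in control liver. Its groups did not overlap, and the difference was -0.69 (limma, unadjusted p = 0.0377), with the lowest value in ErbB4-/- replicate 3.

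Ifngr2, the other chain of the receptor, differed by 0.05, Jak2 by -0.06 and Irf1, the factor of the response element, by 0.02 on the log2 scale. Jak1 differed by -0.09, with groups that did not overlap. Among 8 inhibitors of the pathway, Socs3 and Cish, which are feedback inhibitors of cytokine receptors, had differences of -1.24 and -1.10 and overlapping groups (limma, adjusted p = 0.760 for both), while Socs1, the main inhibitor of interferon gamma signalling, differed by 0.13.

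Other target genes of interferon gamma did not pass either. Of 19 measured, 7 had a higher and 12 a lower mean in ErbB4-/- liver, with a median difference of -0.05. Tap1, a peptide transporter for MHC class I, measured 7.80, 8.0 and 8.36 in ErbB4-/- liver, against 7.72, 7.58 and 7.48 in control liver. Its difference was 0.46 without overlap (limma, unadjusted p = 0.0276, adjusted p = 0.760).

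Casp1, an inflammasome protease, measured 6.14, 5.49 and 5.02 in ErbB4-/- liver, against 6.21, 6.32 and 6.63 in control liver, with a difference of -0.84 and no overlap (limma, unadjusted p = 0.0325, adjusted p = 0.760). Tap1 and Casp1 therefore lay on opposite sides, and ErbB4-/- replicate 3 was at the far end of both. The chemokine gene Cxcl9 differed by -0.24, and Cxcl10 by 0.16, with overlapping groups. Of the type I interferon response genes, 15 of 18 had a higher mean in ErbB4-/- liver, with a median difference of 0.06 and 0 of 18 at an unadjusted p under 0.05 (limma), while the means of all 7 members were lower. Whether the lists differ from the members was not tested.

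GBPs and IRGs are placed on vacuoles by the machinery that conjugates ATG8 proteins to lipid, which autophagy also uses. Of its 10 genes, 6 had a higher and 4 a lower mean, with a median difference of 0.007. Gabarapl1, an ATG8 protein, measured 10.85, 10.99 and 10.85 in ErbB4-/- liver, against 10.43, 10.44 and 10.72 in control liver, a difference of 0.37 without overlap (limma, unadjusted p = 0.0109, adjusted p = 0.760). Atg5 and Atg7, which act in the conjugation, differed by 0.22 and 0.09, also without overlap. The groups of 3 of 10 genes thus lay apart and higher in ErbB4-/- liver, against 4.52% of all genes. Gabarapl2, another ATG8 protein, lay the other way, with a difference of -0.31 and overlapping groups (limma, unadjusted p = 0.0932).

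Cell type markers were read beside the members, because leukocytes and endothelium express these GTPases as well as hepatocytes. T and NK cell markers, of the cells that release interferon gamma, had a median difference of -0.05 over 17 genes, 5 of them higher and 12 lower, with list means of 4.57 to 4.69 on ErbB4-/- arrays and 4.66 to 4.74 on control arrays. Markers of Kupffer cells and macrophages lay lower in 15 of 15 genes, with a median difference of -0.73 and list means of 7.39 to 8.11 on ErbB4-/- arrays, against 8.50 to 8.74 on control arrays. Neutrophil markers lay lower in 12 of 12 genes, with a median difference of -1.23 and list means of 5.0 to 5.39 on ErbB4-/- arrays, against 5.56 to 7.51 on control arrays. Endothelial markers had a median difference of -0.79 over 12 genes, with list means of 7.01 to 8.13 on ErbB4-/- arrays, against 8.12 to 8.51 on control arrays.

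None of these markers passed (limma, smallest adjusted p = 0.760). At an unadjusted p under 0.05, 12 of 15 macrophage, 9 of 12 neutrophil and 6 of 12 endothelial markers were lower, against 2.94% of all genes. The log2 values have no true zero, so no marker can be given as absent. Control replicate 1 had the highest mean of the neutrophil list, 7.51, and the highest mean of the members, while ErbB4-/- replicate 3 had the lowest mean of the macrophage and endothelial lists, 7.39 and 7.01, and the second highest mean of the members. B and plasma cell markers had a median difference of -0.07 over 7 genes, and hepatocyte markers one of -0.03 over 11. The part of these cells in the values of the members was not tested.

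**Figure D5:**
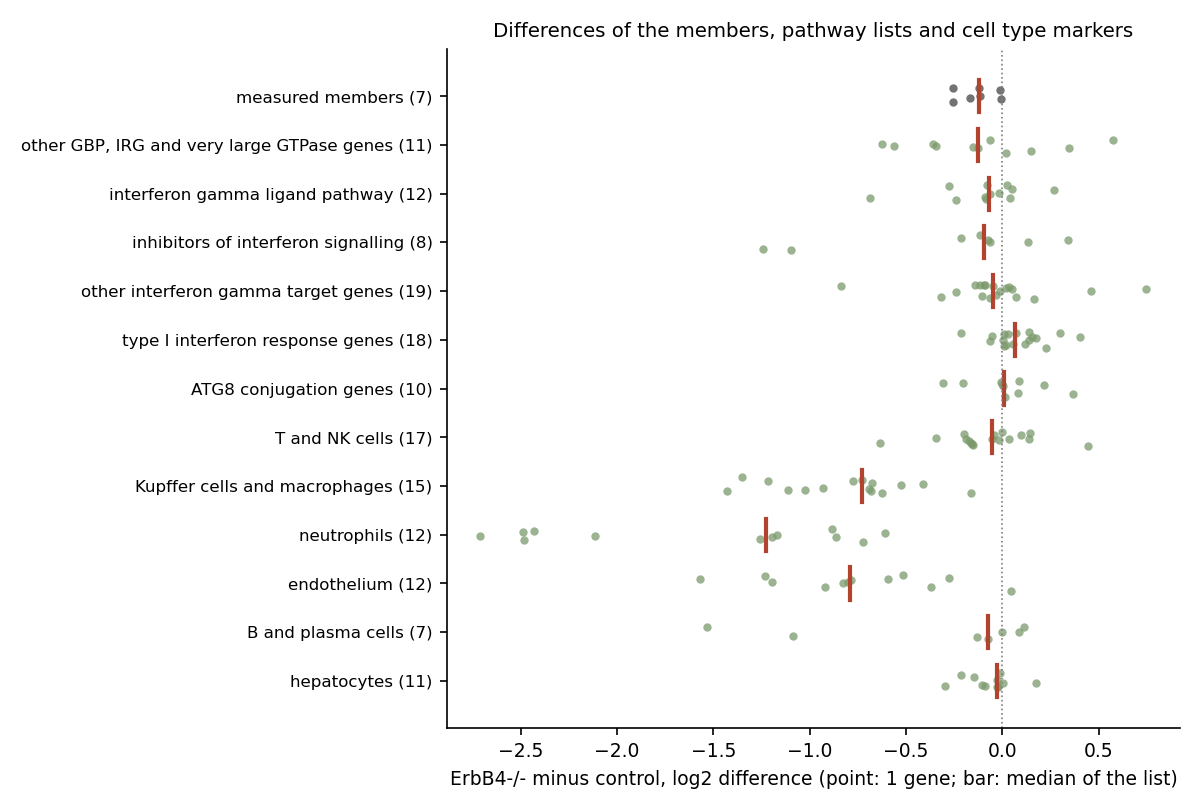
Log2 differences of ErbB4-/- minus control (x axis) for the members, pathway lists and cell type markers (rows, number of measured genes in brackets), with 1 point per gene and a red bar at each list's median. The members lie within 0.26 of 0, with a median of -0.12, while the medians of the macrophage, neutrophil and endothelial markers are -0.73, -1.23 and -0.79.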

How the data were processed

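Liver RNA of 3 ErbB4-/- and 3 control mice was hybridised to 1 single-colour whole-transcript array each, labelled with Affymetrix kits per the labels' protocols. The authors deposited 1 log2 value per probe set and array. Its log base is inferred from a highest value of 14.37; background correction, normalization, summarisation and build are not given in the sources used here. In all, 41345 probe sets were read, of which 23521 have 1 gene symbol in the platform annotation, 1814 several and 16010 none here. The brightest single-symbol probe set stood for a gene, which left 22180 genes without a filter. Equal values on at least 2 arrays occur in 57.5% of genes. Low values may be background. Precision is limited by 3 arrays per group.

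Differences were ErbB4-/- minus control, by the moderated linear model of limma 3.58.1 (lmFit, eBayes; R 4.3.3), with two-sided p adjusted by Benjamini-Hochberg over all genes at 0.05, with 95% intervals from the same fit. The fit was also run on simulated data, and its outcome there is not reported here. No permutation test was used, since its smallest p for these group sizes is 0.1. The design text calls the mice biological replicates. The members, lists, tests and alternatives were chosen with earlier results of these data known. All measured members were named, and of other lists up to 4 genes with the smallest p; Ifng, Ifngr2, Jak2, Irf1, Socs1, Cxcl9 and Cxcl10 were added for their roles after their values were seen, as were Hsd3b5 and Cyp2b9. Likeness was the Pearson correlation with the mean of the measured members. Promoters are RefSeq windows of GRCm38.p6. Figures were drawn with matplotlib 3.10.9.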

Additional observations from a re-analysis of the deposited data

How the results depend on the processing

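The call of 0 members held under all 16 refits. The count of 1 gene over the whole table became 0 at an adjusted p threshold of 0.01, with every row of the table tested, with the week as a covariate, without both control replicate 1 and ErbB4-/- replicate 3, and on leaving out any 1 array (0 to 0), and the smaller number of arrays is part of the last 2. The replicate block also gave 0 genes. Same-numbered mice had correlations of deviations, across genes, of -0.102, 0.034 and -0.05. With 3 arrays per group, these values cannot tell whether the numbers pair the mice, and the design text states no pairing. No member passed after adjustment under the block, although Gbp7 had an unadjusted p of 0.0213 (limma, adjusted p = 0.780), against 0.0911 without the block.

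The median of the members stayed below 0 in all 16 refits, between -0.240 without control replicate 3 and -0.011 without control replicate 1. Single members turned sign in 13 of 111 values, a count that includes the refits that repeat a difference, and none of the values passed. With quantile normalization again, Irgm1 was 0.011 and Iigp1 0.008. With the week as a covariate, which follows the replicate number within each group, Gbp7 was 0.208, Irgm1 0.078 and Iigp1 0.025. Leaving out 1 array gave -0.355 to 0.098 for Gbp3, -0.107 to 0.089 for Irgm1 and -0.053 to 0.025 for Iigp1. Without both arrays Iigp1 was 0.005. The cause was not tested.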

Other observations

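Further genes around the members had differences that did not pass (limma, smallest adjusted p = 0.760). The chemokine gene Cxcl11, a target of interferon gamma, differed by 0.75 between ErbB4-/- and control liver, with overlapping groups, and the inflammatory caspase gene Casp4 by -0.32. Ncr1, the NK cell receptor NKp46, measured 4.30, 4.42 and 4.46 in ErbB4-/- liver, against 3.90, 4.07 and 3.89 in control liver, without overlap. The NK cell genes Klrb1c, Klrk1 and Nkg7 lay the other way, with differences of -0.17, -0.19 and -0.16, the last without overlap, and were named after their values were seen. Cd3g, a chain of the T cell receptor complex, was also lower, with a difference of -0.64 and no overlap. Among macrophage and neutrophil markers, Cd163 differed by -1.35, Marco by -1.43 and S100a9 by -2.49, each without overlap.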
